A study of Petromyzon marinus with 6 samples.

Results

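The giant transcript models of the sea lamprey are the models at least 10000 bases long among those used to count RNA from sorted trunk cells. They were chosen by length alone, whatever their expression, and made 50 of 19781 models, or 0.253%. Cells came from the trunk of Petromyzon marinus, a jawless vertebrate, at the larval stage called the ammocete, and were taken from strips of tissue presumed to be the sympathetic chains. After dissociation and fixation in paraformaldehyde they were selected with an antibody into cells with tyrosine hydroxylase, labelled TH+ sympathetic, and cells without it, labelled TH- control, and each group was sequenced in 3 libraries. Tyrosine hydroxylase is the rate-limiting enzyme of catecholamine synthesis. The labels name no genotype, strain or further treatment, and both groups went through the same fixation and its reversal before RNA extraction. Whether the 3 libraries per group stand for 3 animals or 3 sorts is not stated, so p-values reflect only how far these libraries spread, which may be technical. The TH- group is defined only by the missing stain and may hold any other cell of the strip.

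In vertebrates, transcripts of this size can encode very large proteins. Some belong to muscle, such as titin and nebulin of the sarcomere. Others hold up membranes and axons, such as the spectrin-based and ankyrin-based scaffolds of neurons, and others again are motors such as the heavy chain of cytoplasmic dynein, which carries cargo along the axon toward the cell body. A long transcript also gathers more reads per molecule than a short one. Levels of single models are therefore compared with each other as TPM, which divide reads by length and are brought to one total per library. Counts are used for shares of reads and for the number of reads behind a test. The models carry PMZ identifiers and a lamprey gene table with symbols held none of them, so no giant model is given a gene name, and the cell types could not be checked against their markers. Models are called by their length in bases, which is different for each of the 50, and 4 also by identifier.

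The giant models ran from 10011 to 49392 bases, with a median of 11597.5 against 1398 for all models. Only 7 were 15000 bases or longer. Their lengths were multiples of 3, as a coding sequence without untranslated ends would be, in 37 cases (74.0%, against 62.3% of all models). No giant model was a second transcript of a gene, and none had the same values as another model. The estimated counts of 33 were whole in all 6 libraries within 1e-06, and those of the other 17 were fractional in at least 1 library, which arises when reads are divided between similar models. At the limit, the models of 9954, 9982 and 9985 bases just outside had mean TPM of 0.281, 33.2 and 4.69 in TH+ and of 0.00421, 0.613 and 0.825 in TH-. Just inside, the models of 10011, 10023 and 10107 bases had 0.397, 0.442 and 3.48 TPM in TH+ and 0.0652, 0.0337 and 0.209 TPM in TH-.

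TH+ cells gave a larger part of their reads to giant transcripts than TH- cells. Giant models took 0.572%, 0.582% and 0.571% of the counts of the TH+ libraries, and 0.0856%, 0.0921% and 0.0891% of those of the TH- libraries. The groups lay far apart, with means of 0.575% ± 0.00613 and 0.0889% ± 0.00327 (SD over 3 libraries each), a ratio of 6.46. In TPM, the giant models together stood at 551 ± 5.21 in TH+ and 70.2 ± 0.710 in TH- (SD over 3 libraries each), a ratio of 7.85. For either share p was 0.1 by a two-sided exact permutation test, the smallest value that 3 against 3 libraries allow. A higher level in TH+ was not particular to giant models. Over the 14874 models counted in both groups the median ratio of mean TPM, TH+ over TH-, was 5.49. This is a median over single models and not a ratio of sums. The libraries held 6573211 to 7525168 estimated counts in TH+ and 7127539 to 9221334 in TH-, of which 38241 to 43007 and 6347 to 8494 fell on giant models.

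The difference was also present against the next shorter models, a comparison that needs no scaling between libraries. For every 1000 counts in the 892 models of 5000 to under 10000 bases, the TH+ libraries held 68.1, 69.6 and 68.9 counts in giant models and the TH- libraries 20.5, 25.6 and 23.5. That is 2.97 times as many in TH+ (two-sided exact permutation test, p = 0.1, the smallest possible). The models of 5000 to under 10000 bases themselves took 8.35% ± 0.0545 of the counts in TH+ and 3.85% ± 0.290 in TH- (SD over 3 libraries each), a ratio of 2.17, while those under 1000 bases took 21.6% ± 0.378 and 36.1% ± 0.705, a ratio of 0.597. The ratio was 0.755 for models of 1000 to under 2000 bases and 1.56 for those of 2000 to under 5000. It thus rose at each step over these 5 classes of length. This trend is one of pooled counts, on which abundant models weigh most, and single models did not follow it. The median of mean TPM under 1000 bases was 1.68 in TH+ and 0.0985 in TH-. At 5000 to under 10000 bases it was 8.31 in TH+ and 1.96 in TH-. Sequenced fragments differed between the groups as well: the deposited effective length of a giant model was shorter than its length by 139.8 ± 4.20 bases in TH+ and 102.6 ± 2.33 bases in TH- (median over giant models, SD over n = 3 libraries each), and the part of this in the length trend was not tested. In these bulk libraries, fewer cells that carry a transcript and less of it per cell cannot be told apart.

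**Figure D1:**
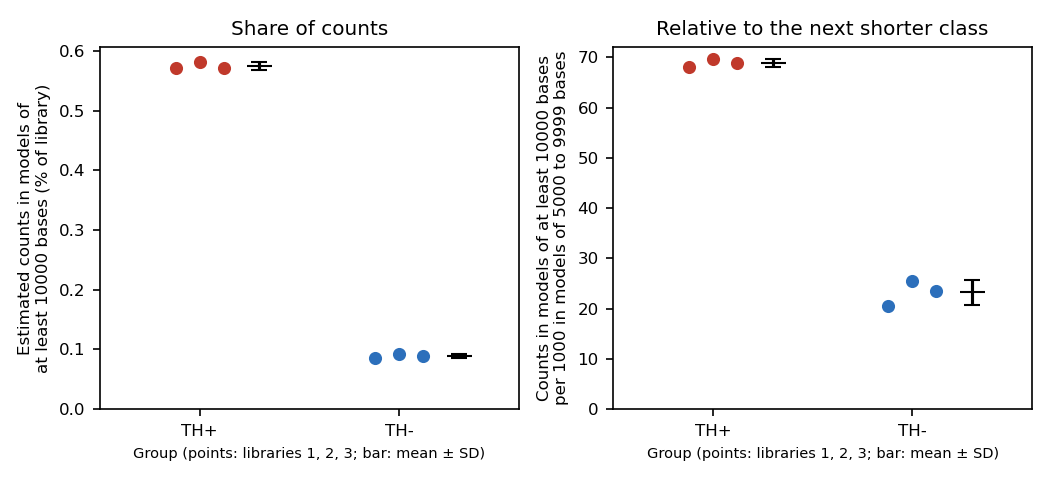
Left, percent of each library's estimated counts in the 50 models of at least 10000 bases. Right, counts in these models per 1000 counts in the models of 5000 to under 10000 bases. Points are libraries and bars the mean ± SD (n = 3); on both scales each TH+ library lies above each TH- library.

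Nearly all giant models were detected in both kinds of cell. At least 1 count was found for 50, 49 and 49 of them in the TH+ libraries and for 48, 50 and 48 in the TH- libraries, and these ranges overlapped (difference of means 0.667, two-sided exact permutation test, p = 0.6). Over all models, detection was 82.4% in TH+ and 65.5% in TH-, and for giant models it was 98.7% and 97.3%. With a minimum of 10 counts the numbers were 45, 45 and 46 in TH+ and 36, 39 and 37 in TH-, ranges that did not overlap (exact permutation p = 0.1). No giant model was without counts in all libraries of a group.

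Levels of single giant models spanned a wide range. Mean TPM ran from 0.0131 to 120.2 in TH+, with a median of 2.97, and from 0.0060 to 13.9 in TH-, with a median of 0.278. In TH+ 15 of the 50 models reached 10 TPM and 29 reached 1 TPM. In TH- 1 reached 10 TPM and 16 reached 1 TPM. The order of the models was similar in both groups (Spearman's rho 0.918 over the 50 models, a description, since models are not replicates and the libraries share a protocol). TPM ranges of the groups did not overlap, with TH+ the higher, for 44 of the 50 models (88.0%). Over all 18062 models with a count the same was true of 68.6%. TH- was the higher without overlap for 0 giant models, against 4.24% of all models, and 6 giant models overlapped. The 18062 include models with very few counts, and giant models were detected more often than all models. The part of detection in these differences was not tested. The median ratio of mean TPM, TH+ over TH-, was 7.40 over the 50 giant models and 5.49 over the 14874 models counted in both groups.

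**Figure D2:**
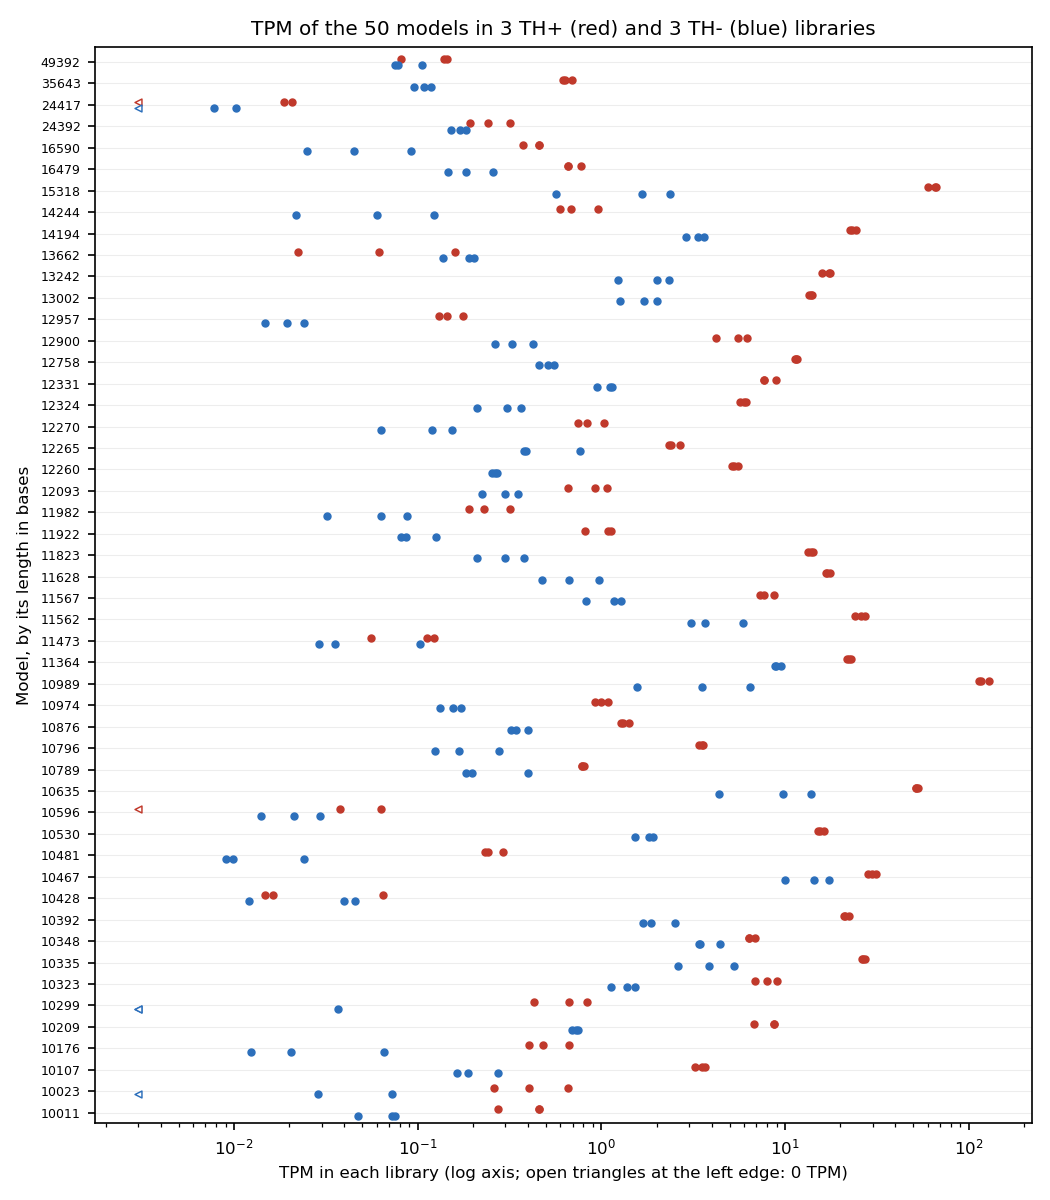
TPM of each of the 50 models in each library, on a log axis, with models ordered by length from 49392 to 10011 bases. Red points are the 3 TH+ and blue points the 3 TH- libraries, and open triangles mark 0 TPM; for 44 models all red points lie to the right of all blue ones.

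The single test of each model on counts used TMM scaling, which sets libraries to a common level by trimming the models that differ most, and edgeR's quasi-likelihood test with Benjamini-Hochberg adjustment over all 11502 models with enough counts. Of the 50 giant models 46 could be tested. In TH+ 26 were higher at an adjusted p of at most 0.05 (56.5% of the 46, where 42.8% of all tested models were higher) and 6 were lower (13.0%, where 32.9% of all were lower), while 14 did not pass. Their median log2 fold change was 0.85, against 0.38 for all tested models. Of the 26 higher models, 10 exceeded a 4-fold change, 9 lay between 2-fold and 4-fold, and 7 were at or below 2-fold. The 4 untested models, of 24417, 11473, 10596 and 10428 bases, had at most 12.4 counts in any library.

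The calls of lower models depended on the scaling. The 26 higher calls stood under each scaling compared, but none of these put the median fold change of all models clearly below that of TMM. The mean TMM factor was 1.84 for TH+ and 0.544 for TH-, and with library totals alone the fold changes of all tested models moved up by a median of 1.75 on the log2 scale. On library totals 43 giant models were higher (93.5% of the 46, where 78.1% of all tested models were higher) and 1 was lower (where 8.99% of all were lower). With limma on log2(TPM + 1), 41 of 47 were higher, where 78.1% of all were, and 0 were lower, where 4.52% of all were, with 0 lower at an unadjusted p under 0.05. With limma on log2(TPM + 0.1), 43 of 47 were higher, where 78.5% of all were, and 0 were lower, where 4.42% of all were, again with 0 lower at an unadjusted p under 0.05. The 26 higher models were called higher under all of 5 scalings, namely TMM, upper quartile, library totals, DESeq2 size factors, and limma on log2(TPM + 1), and 0 giant models were lower under all 5. Of the 6 models lower under TMM, library totals called 3 higher, 2 neither way and 1 lower. In mean TPM, 5 of the 6 were higher in TH+. The lead of the giant median over that of all models was 0.47 under TMM and 0.46 with library totals. It was 0.05 with no low-count filter, and with limma on log2(TPM + 1), which tested other models, the giant median was the lower by 0.21.

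**Figure D3:**
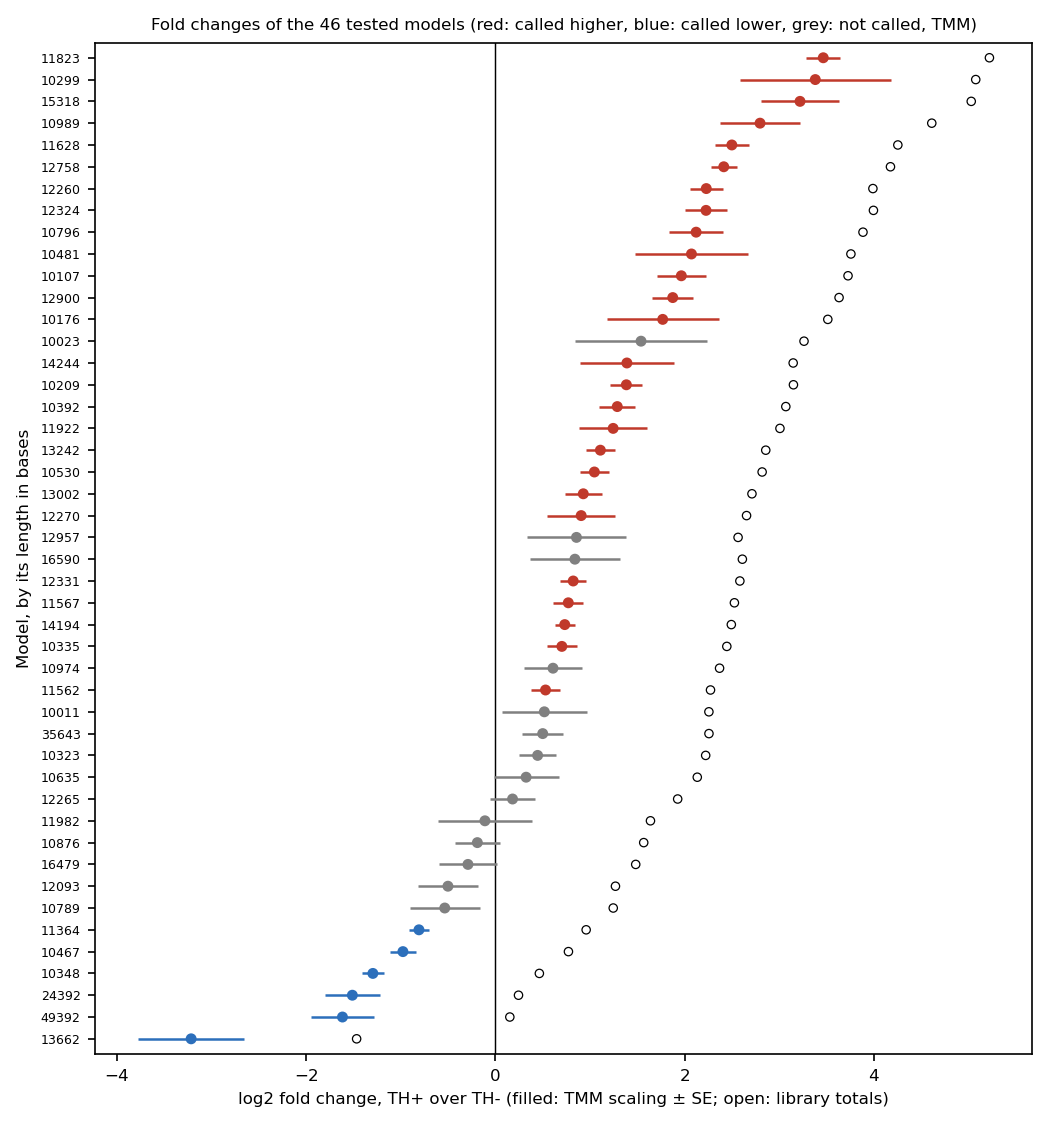
log2 fold change, TH+ over TH-, of the 46 tested models, labelled by length in bases. Filled points are TMM values ± SE, in red where called higher (26), in blue where called lower (6) and in grey where not called (14); open circles are the values on library totals, which lie right of 0 for all models but that of 13662 bases.

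By the rule for printed identifiers, the giant models with the largest changes were the following. PMZ_0054669-RA, 11823 bases long, was counted 1030, 966 and 996 times in TH+ and 34, 26 and 36 times in TH-. Every TH+ library was far above every TH- library. Its level was 13.8 ± 0.473 TPM in TH+ and 0.297 ± 0.0862 TPM in TH- (SD over 3 libraries each), a ratio of 46.5, and its log2 fold change on the TMM scale was 3.46 (SE 0.18, edgeR adjusted p = 2.0e-08).

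PMZ_0028031-RA, 15318 bases long, was counted 6029, 5918 and 6039 times in TH+ and 84, 382 and 204 times in TH-. Its TH+ libraries were close together, whereas the TH- libraries spread over a wide range without reaching them. In TPM it stood at 64.0 ± 3.49 in TH+ and 1.54 ± 0.909 in TH- (SD over 3 libraries each), and its log2 fold change was 3.22 (SE 0.42, edgeR adjusted p = 3.26e-05). It was the second most abundant giant model of the TH+ cells. Without TH- replicate 2 its log2 fold change was 3.82, and without TH- replicate 1 it was 2.74.

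PMZ_0060201-RA, of 10348 bases, was lower in TH+ on the TMM scale and higher on library totals. It had 429, 417 and 391 counts in TH+ and 439, 372 and 281 in TH-, so raw counts overlapped. After TMM scaling it stood at 32.2 ± 1.37 CPM (counts scaled to a common total) in TH+ and 79.0 ± 5.21 CPM in TH- (SD over 3 libraries each), a log2 fold change of -1.29 (SE 0.12, edgeR adjusted p = 1.84e-06). Its TPM were 6.53 ± 0.273 in TH+ and 3.75 ± 0.572 in TH-, the opposite order, and on library totals its log2 fold change was 0.46 (edgeR adjusted p = 0.011).

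PMZ_0059091-RA, 10467 bases long, was counted 2047, 1924 and 1751 times in TH+ and 1740, 1102 and 1194 times in TH-. It was the most abundant giant model of the TH- cells, at 13.9 ± 3.64 TPM, and stood at 29.8 ± 1.44 TPM in TH+ (SD over 3 libraries each). Its log2 fold change was -0.98 on the TMM scale (SE 0.13, edgeR adjusted p = 5.12e-05) and 0.77 on library totals (edgeR adjusted p = 8.64e-04). The 11364-base model went the same way, with 21.7, 22.8 and 22.4 TPM in TH+ and 9.57, 8.89 and 8.81 TPM in TH-, a log2 fold change of -0.81 under TMM (edgeR adjusted p = 4.45e-05) and 0.96 on library totals (edgeR adjusted p = 6.5e-06). These are the 3 models that changed from lower to higher with the scaling.

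The most abundant giant models of the TH+ cells were those of 10989, 15318 and 10635 bases. The 10989-base model led, with 129.9, 113.7 and 116.9 TPM in TH+ and 1.57, 6.43 and 3.52 TPM in TH-. Its groups lay far apart, and its log2 fold change was 2.80 (SE 0.42, edgeR adjusted p = 1.11e-04). Without TH- replicate 2 this became 3.53, and without TH- replicate 1 it became 2.34. Its counts were fractional in TH+ replicates 1 and 3, at 9328.62 and 7582.74, a sign of reads shared with another model. In the other libraries they were whole.

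The 10635-base model had 52.8, 51.7 and 51.9 TPM in TH+ and 4.40, 13.8 and 9.75 TPM in TH-. The groups did not overlap in TPM, but they did in TMM-scaled CPM, and the model did not pass the test there, with a log2 fold change of 0.32 (SE 0.34, edgeR adjusted p = 0.404). Without TH- replicate 2 it was called higher, with a log2 fold change of 0.84 (edgeR adjusted p = 0.00307), and without TH- replicate 1 the sign turned, at -0.09 (edgeR adjusted p = 0.585). Next in TH+ was PMZ_0059091-RA, the 10467-base model described before. It was followed by the 10335-base model, at 26.8 ± 0.360 TPM against 3.91 ± 1.32 in TH-, and the 11562-base model, at 25.7 ± 1.61 against 4.23 ± 1.5 (SD over 3 libraries each). Both were called higher, with log2 fold changes of 0.70 and 0.53 (edgeR adjusted p = 0.00167 and 0.00952). The call of the 11562-base model was lost without TH- replicate 3, with a log2 fold change of 0.41 (edgeR adjusted p = 0.0753).

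The 5 most abundant giant models of the TH- cells were those of 10467, 10635, 11364, 11562 and 10335 bases, of which 3 were also among the 5 of TH+. The models of 10989 and 15318 bases, first and second in TH+, were not among them. The 10989-base model stood at 3.84 ± 2.45 TPM in TH- and the 10335-base model at 3.91 ± 1.32 TPM (SD over 3 libraries each), so these neighbours in the order did not differ beyond their spread.

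The 3 models most abundant in TH+ varied together among the TH- libraries. They held 9.20%, 31.3% and 21.1% of the giant counts of TH- replicates 1, 2 and 3, and 44.2%, 43.2% and 43.8% of those of the TH+ libraries. TPM in TH- replicate 2 was 4.10 times that in replicate 1 for the 10989-base model, 4.17 times for the 15318-base model and 3.14 times for the 10635-base model. Over the other 17 giant models that averaged 50 counts or more in TH- this ratio had a median of 0.799 and ran from 0.498 to 1.58. The models were picked for their TH+ level, and no test was made of this pattern. The other 47 giant models summed to 63.1, 48.4 and 55.0 TPM in the TH- libraries, lowest where the 3 were highest, and the total over all 50 was 69.6, 71.0 and 69.9 TPM.

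**Figure D4:**
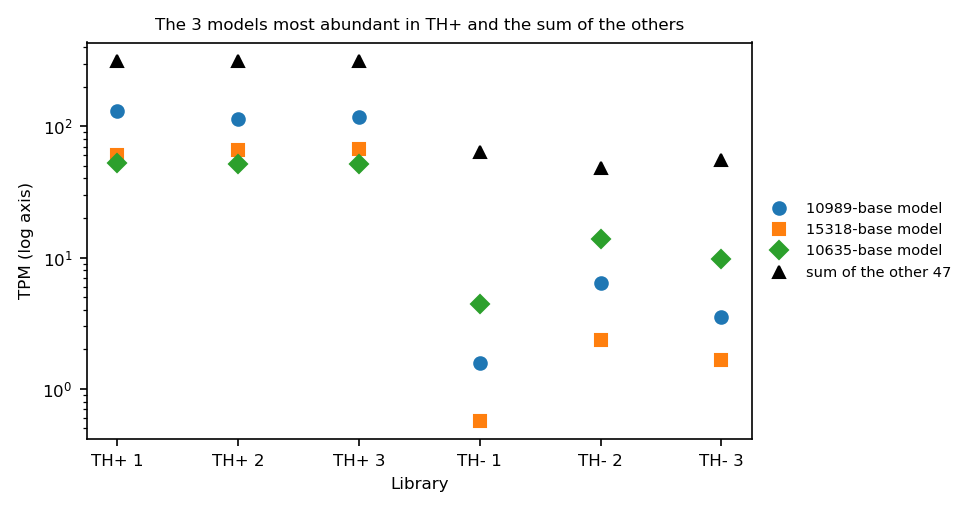
TPM in each library, on a log axis, of the models of 10989, 15318 and 10635 bases and of the sum of the other 47 giant models. The 3 models are lowest in TH- 1 and highest among TH- libraries in TH- 2, while the sum of the others goes from 63.1 to 48.4 TPM between these libraries.

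Without these 3 models the giant models still made up more of the TH+ reads. The other 47 held 37.96, 39.5 and 38.7 counts per 1000 counts in models of 5000 to under 10000 bases in TH+, and 18.6, 17.6 and 18.6 in TH-, a ratio of 2.12 (two-sided exact permutation test, p = 0.1, the smallest possible). In TPM they summed to 315 ± 1.5 in TH+ and 55.5 ± 7.38 in TH- (SD over 3 libraries each), a ratio of 5.67. That is near the median ratio of mean TPM over the 14874 models counted in both groups, 5.49. The first is a ratio of sums and the second a median over single models.

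Spread between replicates was larger in TH- than in TH+. Among the 20 giant models that averaged 50 counts or more in both groups, the median coefficient of variation of TPM was 4.49% over the TH+ libraries and 22.0% over the TH- libraries. It was the larger in TH- for 19 of the 20. The same number over all models is not given here, and whether this spread is particular to giant models was not tested. Each of the 20 had a lower mean count in TH- than in TH+, and the part of counting noise in this spread was not tested. Replicates 1, 2 and 3 had the highest TPM of their group for 20, 16 and 14 giant models in TH+ and for 17, 17 and 16 in TH-.

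Of the 10 longest models 3 were higher, 3 lower and 3 not called under TMM, and 1 was not tested. The longest of all, at 49392 bases, was counted 47, 24 and 41 times in TH+ and 36, 55 and 31 times in TH-. These counts overlapped, and so did its TPM, at 0.122 ± 0.0348 and 0.0863 ± 0.0166 (SD over 3 libraries each). On the TMM scale it was called lower, with a log2 fold change of -1.62 (SE 0.33, edgeR adjusted p = 0.00109), and on library totals it did not pass, at 0.15 (edgeR adjusted p = 0.66).

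The 35643-base model had 163, 131 and 135 counts in TH+ and 41, 36 and 31 in TH-, so all TH+ libraries were higher. It stood at 0.649 ± 0.0393 and 0.108 ± 0.0116 TPM (SD over 3 libraries each), and its log2 fold change of 0.50 missed the threshold under TMM (edgeR adjusted p = 0.0518) and was 2.26 on library totals (edgeR adjusted p = 2.3e-06). The 24417-base model, with 0 to 3 counts per library, was not tested. The 24392-base model had 51, 28 and 35 counts in TH+ and 40, 39 and 36 in TH-. Its raw counts overlapped while TPM did not, with TH+ the higher, and it was lower under TMM at a log2 fold change of -1.51 (edgeR adjusted p = 7.14e-04) and not called on library totals, at 0.24 (edgeR adjusted p = 0.45).

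The models of 16590 and 16479 bases did not pass under TMM, at log2 fold changes of 0.84 and -0.29 (edgeR adjusted p = 0.127 and 0.406). The first had 0.459, 0.459 and 0.377 TPM in TH+ and 0.0250, 0.0917 and 0.0453 TPM in TH-, with no overlap. It was called higher without TH- replicate 2, at 1.61 (edgeR adjusted p = 0.00921). The second had 0.661, 0.776 and 0.660 TPM in TH+ and 0.182, 0.259 and 0.147 TPM in TH-, again with no overlap, and its log2 fold change was 0.07 without TH- replicate 2.

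The 14244-base model had 90, 50 and 58 counts in TH+ and 3, 9 and 14 in TH-, and was higher by a log2 fold change of 1.39 (edgeR adjusted p = 0.0236). That call was lost without TH+ replicate 1, TH+ replicate 3 or TH- replicate 1 (edgeR adjusted p = 0.111, 0.0554 and 0.0711), while without TH- replicate 3 the log2 fold change was 2.0. The 14194-base model was far more abundant, at 23.4 ± 0.835 TPM in TH+ and 3.30 ± 0.372 TPM in TH- (SD over 3 libraries each), and rose by 0.73 on the log2 scale (edgeR adjusted p = 7.11e-05). The 13662-base model was the only giant model tested that was lower on library totals. It had 2, 5 and 13 counts in TH+ and 25, 29 and 15 in TH-. Its log2 fold change was -3.21 under TMM (SE 0.56, edgeR adjusted p = 3.4e-04) and -1.47 on library totals (edgeR adjusted p = 0.028), and its TPM ranges overlapped. Without TH+ replicate 3 the value under TMM was -4.14. Of the 7 models of at least 15000 bases, 6 were tested, 1 was higher and 2 were lower under TMM. Of the 14 from 12000 to under 15000 bases 10 were higher and 1 was lower, and of the 26 tested from 10000 to under 12000 bases 15 were higher and 3 lower. Over all tested models 42.8% were higher and 32.9% lower.

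Other models called higher included strong changes at moderate levels. The 12758-base model had 977, 868 and 857 counts in TH+ and 63, 61 and 56 in TH-, with replicates close together in both groups. Its log2 fold change was 2.41 (SE 0.14, edgeR adjusted p = 4.24e-08). The 11628-base model stood at 17.1 ± 0.445 TPM in TH+ and 0.704 ± 0.252 in TH-, and the 12260-base model at 5.32 ± 0.201 and 0.264 ± 0.0077 (SD over 3 libraries each), with log2 fold changes of 2.50 and 2.23 (edgeR adjusted p = 2.66e-07 and 5.91e-07). The 10299-base model had the largest TPM ratio, 52.3, but few reads, with 45, 26 and 51 counts in TH+ and 0, 4 and 0 in TH-. That ratio rests on the 4 counts of TH- replicate 2. Its log2 fold change of 3.38 (edgeR adjusted p = 0.00259) became 2.69 without TH- replicate 1. Without TH- replicate 2, where both remaining TH- libraries are at 0, the fitted value was 7.92, which depends on the prior count. Over the other 25 higher models the TPM ratio ran from 6.08 to 46.5.

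The 14 models that did not pass mostly had few reads in TH+. Their median was 66.4 counts per TH+ library, against 585.7 for the 26 higher models. Those 26 were called for being higher in TH+, so part of this gap follows from the calls. The 10635-base model did not pass although it averaged 3389 counts per TH+ library. All 14 had higher TPM in every TH+ library than in any TH- library, as had 68.6% of all 18062 models with a count. Ratios of mean TPM of the 14 ran from 3.04 to 13.1. Their log2 fold changes under TMM ran from -0.53 to 1.54, 9 of them above 0 and 5 below. On library totals all 14 were called higher, where 78.1% of all tested models were. Under TMM, leaving out TH- replicate 2 made the models of 10635, 10323 and 16590 bases higher, and leaving out TH- replicate 1 made that of 10023 bases higher and those of 10789 and 12093 bases lower.

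Among the 5 classes of length, giant models had the largest share of higher calls and the smallest share of lower calls under TMM, a description with no test of the difference. Of the tested models under 1000 bases 52.7% were higher and 23.3% lower, and these shares went to 37.8% and 39.7% at 5000 to under 10000 bases before reaching 56.5% and 13.0% in the giant models. The giant class rests on 46 tested models and the class before it on 837. The 6 tested giant models of at least 15000 bases had 16.7% higher and 33.3% lower under TMM, which is 1 and 2 models. On library totals 4 of these 6 were higher and 0 lower, where 78.1% of all tested models were higher and 8.99% lower. On that scale 648 of the 837 models of 5000 to under 10000 bases were higher and 55 lower. Within the giant models, log2 fold change showed little relation to length (Spearman's rho -0.138 over the 46 models) or to mean TPM over the 6 libraries (rho 0.198), given as descriptions.

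**Figure D5:**
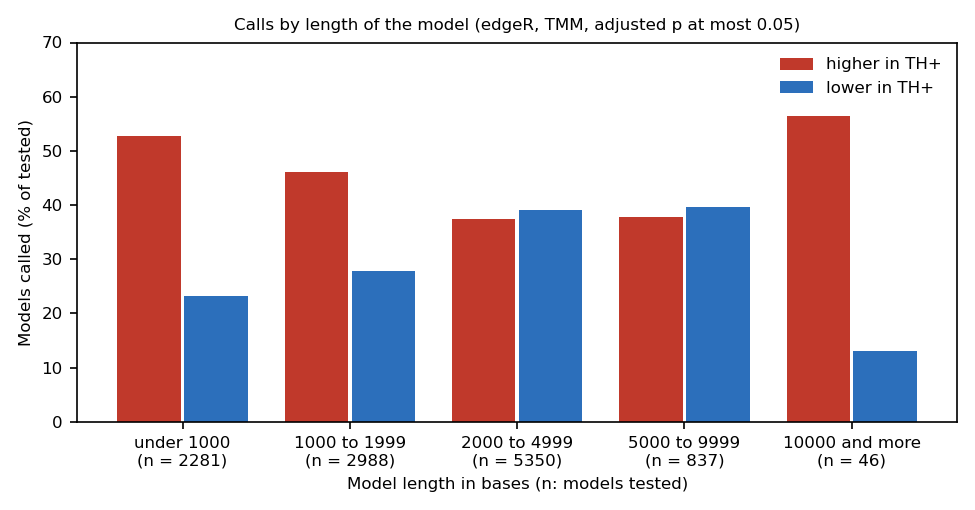
Percent of tested models called higher (red) or lower (blue) in TH+ by class of model length, from edgeR with TMM scaling. The class of 10000 bases and more, with 46 tested models, has 56.5% higher and 13.0% lower calls, against 37.8% and 39.7% of the 837 models of 5000 to under 10000 bases.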

How the data were processed

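Per the labels' protocols, RNA was extracted with a NucleoSpin kit after reversal of crosslinks and made into cDNA with a SMART-Seq v4 kit for very little input. The deposited tables list estimated counts, TPM, length and effective length in bases for each transcript model; the submitters' processing notes name kallisto and DESeq2 with no version, and the sources used here give no transcript set or build. Estimated counts as the authors deposited them are not scaled for depth, and TPM were scaled by the authors' run to the same total per library. No molecular identifiers are described, so counts are of reads.

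Counts were rounded, models kept by filterByExpr (minimum count 10, minimum total 15), and all 11502 were fitted with edgeR 4.0.16 (R 4.3.3). Alternatives used DESeq2 1.42.0 and limma 3.58.1 (models above 0.1 TPM in at least 3 libraries); shares used exact permutation tests (SciPy 1.17.1). On counts simulated for this comparison, 11232 models were tested and 200 models were changed. There edgeR recovered 53 of 100 models changed by 2-fold and 91 of 100 changed by 4-fold, with 4.64% false calls. In the libraries themselves 42.8% of the tested models were called higher and 32.9% lower. The rate of false calls with that many models called was not tested. Standard errors were taken from the fold change and F statistic.

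Identifiers were printed for the 2 separated giant models with the largest change in each direction averaging 50 counts or more where higher. Models described by length only were the 10 longest, the 5 of highest TPM per group and the 3 on either side of the limit; others so described were chosen after their values were seen. The giant models and lists were chosen with earlier results of these data known. Of 45433 genes in the lamprey table, 0 matched an identifier, and no sequence is shown.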

Additional observations from a re-analysis of the deposited data

How the results depend on the processing

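Counts of giant models called higher and lower were 26 and 6 under TMM and 43 and 1 with library totals. They were 41 and 0 with limma on log2(TPM + 1), and 43 and 0 with limma on log2(TPM + 0.1). With DESeq2's own test they were 24 and 6, with no share of all models given here. That test did not call the models of 10481 and 12270 bases, higher under TMM (DESeq2 adjusted p = 0.0509 and 0.0520). Under TMM the counts were 11 and 3 with a limit of 12000 bases, and 51 and 24 with a limit of 8000 bases. With the limit of 8000 bases, lower calls were thus less scarce beside higher calls than in the main set. These are counts, not shares of the models tested. Over all tested models 42.8% were higher and 32.9% lower under TMM. A stricter filter left 3 lower, since the 3 others were then not tested, and 17 were higher among models with whole counts, an alternative chosen after seeing the data. The median log2 fold change, 0.85, became 1.23 with upper-quartile scaling, 2.60 with library totals, 1.08 with the stricter filter, and 1.203 and 2.48 with the limma fits. Of the 4 models with printed identifiers, 2 kept call and direction with library totals and with either limma fit. There PMZ_0060201-RA stood at 0.46, 0.67 and 0.79, and PMZ_0059091-RA at 0.77, 1.08 and 1.13. The scales differ in how they set libraries to a common level, and which is right was not tested.

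Leaving out 1 library at a time gave 23 to 28 higher and 6 to 8 lower models, medians of 0.80 to 0.92, and all 4 identified models called. Shares of all models called in these fits are not given here, so the counts show only how the giant calls held. PMZ_0054669-RA ranged from 3.33 to 3.64, PMZ_0028031-RA from 2.74 to 3.82, PMZ_0059091-RA from -1.11 to -0.91 and PMZ_0060201-RA from -1.39 to -1.28. Of the 32 calls, 27 remained in all 6 such fits. Higher calls were lost for the 12270-base model in all but the fit without TH- replicate 3, for the 10176-base model without TH+ replicate 2, TH- replicate 1 or TH- replicate 3, and for the 10481-base model without TH- replicate 1. Those of 14244 and 11562 bases are given with their values, and 6 others were gained. The difference in count share ranged from 0.482 to 0.488 percentage points, that in TPM share from 0.0478 to 0.0483, and that in detected models from 0.333 to 1.33. With a limit of 12000 bases the difference in detected models was 0.0.

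Deviations from the group means showed no pairing of libraries by replicate number. Whether libraries of the same number share an animal or a sort is not stated. The correlations of deviations for numbers 1, 2 and 3 were 0.00816, 0.0220 and -0.00355, and not every library correlated best with its own number. With the replicate block 23 of the 46 tested giant models were higher and 6 lower. Higher calls were lost there for the models of 10481, 12270 and 14244 bases. The share of all models called in that fit is not given here. The low counts of the longest models limit what can be said of them.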

Other observations

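The 3 giant models with the lowest log2 fold changes under TMM, of 13662, 49392 and 24392 bases, lay within 15 consecutive rows of the deposited tables, the models of 49392 and 24392 bases side by side. What the order of the rows follows is not given in the sources used here. Counts of the 49392-base model were 47, 24 and 41 in TH+ and 36, 55 and 31 in TH-, and those of the 24392-base model were 51, 28 and 35 in TH+ and 40, 39 and 36 in TH-. Among all giant models, 3 neighbouring pairs lay less than 20 rows apart, including the pairs within the 3 models just described. The remaining pair was that of 12324 and 11473 bases. This was noticed after the values were seen and was not tested.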
